A study of Homo sapiens with 6 samples.

Results

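The genes described here encode the WNT ligands, their Frizzled receptors and co-receptors, the secreted and membrane proteins that limit them, and the intracellular genes of the beta-catenin arm, including genes that the pathway itself induces. They were chosen by symbol in the deposited count table: 52 of its 21503 genes matched, with 13 ligands, 9 Frizzled receptors, 5 co-receptors, 10 inhibitors, 5 genes of the R-spondin arm, 6 intracellular regulators and 4 TCF/LEF factors. A further 13 genes of the same names were listed only in the table of TPM, a transcript level scaled for gene length and library total. The 2 groups were UMUC3 cells with GANAB knockdown and control UMUC3 cells, with 3 bulk RNA-seq libraries each. UMUC3 is an established human bladder carcinoma line, and the cells of both groups grew for 14 days in the bladders of C57 nude mice, which lack T cells but keep other host cells that can enter such a tumour. The labels do not say how the knockdown was made, what the control cells carried, whether a single clone was used or whether libraries came from separate animals, so p-values measure only the spread between these libraries, which may be technical.

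WNT proteins are lipid-modified, N-glycosylated ligands that pass through the endoplasmic reticulum and bind Frizzled receptors with LRP5 or LRP6, which halts the complex of AXIN, APC and glycogen synthase kinase that otherwise marks beta-catenin for destruction. Beta-catenin then enters the nucleus and acts with TCF/LEF factors on target genes, among them feedback genes such as AXIN2, NKD1, RNF43, ZNRF3, NOTUM and LGR5. A second, beta-catenin-independent arm runs through ligands such as WNT5A and WNT5B and the receptors ROR1, ROR2 and RYK. GANAB encodes the catalytic subunit of glucosidase II, which trims glucose from new N-glycans in the endoplasmic reticulum.

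GANAB itself stood at 231.5, 238.1 and 230.5 CPM in knockdown libraries 1, 2 and 3, against 685.0, 825.1 and 660.9 CPM in control libraries 1, 2 and 3 (log2 fold change -1.63, SE 0.141, edgeR adjusted p = 0.00239); CPM here are counts scaled to a common library size by TMM. Totals were 36619291 to 40039584 estimated counts in knockdown libraries and 11737837 to 36381218 in control libraries, so that 1 count was worth 0.0236 to 0.0255 CPM in the knockdown and 0.0368 to 0.0823 CPM in the control. The control libraries differed more among themselves: the coefficient of variation over libraries had a median of 8.37% in the knockdown and 39.5% in the control over the 49 members tested, and 8.89% and 35.2% over all 19430 genes tested. Control library 1 held 17.5% of its counts in the mitochondrial ribosomal RNA gene MT-RNR2, against at most 2.02% in each knockdown library. Of 16 urothelial marker genes for the labelled bladder origin, 14 were in the count table. The keratin genes KRT8 and KRT18 averaged 162.0 and 201.2 TPM in the knockdown and 122.5 and 169.3 TPM in the control, KRT7 15.4 and KRT5 6.00 TPM in the knockdown and 23.5 and 4.80 TPM in the control. The uroplakin genes UPK1A, UPK2 and UPK1B and the factor gene FOXA1 averaged 5.33, 4.68, 3.65 and 5.68 TPM in the knockdown and 0.505, 0.728, 1.005 and 1.37 TPM in the control. UPK3A and KRT20 were listed at 0 TPM in every library, and CDH1 and EPCAM stayed at or below 0.560 CPM.

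In the knockdown libraries AXIN2, a feedback inhibitor and widely used readout of beta-catenin activity, was 7.77-fold higher, the receptor gene ROR1 was 2.92-fold higher and the ligand gene WNT7B was 2.07-fold lower. These were the 3 of 49 tested members that passed edgeR's quasi-likelihood test at an adjusted p under 0.05, 2 higher and 1 lower. Over all genes tested 8.31% passed, 4.59% higher and 3.72% lower in the knockdown, so the members' share of 6.12% was near the background and says nothing particular about the pathway. The median log2 fold change (knockdown over control) was 0.23 over the members and 0.03 over all genes. On that scale 34 of the 49 tested members lay above 0, against 52.1% of all genes, and this difference was not tested. Within 0.5 of zero lay 30 of the 49 tested members, against 54.8% of all genes. Another 3 members, RNF43, FZD6 and NOTUM, were left out by the filter on low counts. The CPM of the groups did not overlap for 14 members that were higher and 2 that were lower in the knockdown, 32.7% of those tested, against 37.6% of all genes, 21.9% higher and 15.7% lower. At an unadjusted p under 0.05, 11 members were higher and 1 was lower (12 of 49), against 26.0% of all genes in either direction. All genes were not split by direction at this cut, so the members' split has no background beside it. In bulk RNA a change in the number of cells of a type cannot be told apart from a change in RNA per cell.

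**Figure D1:**
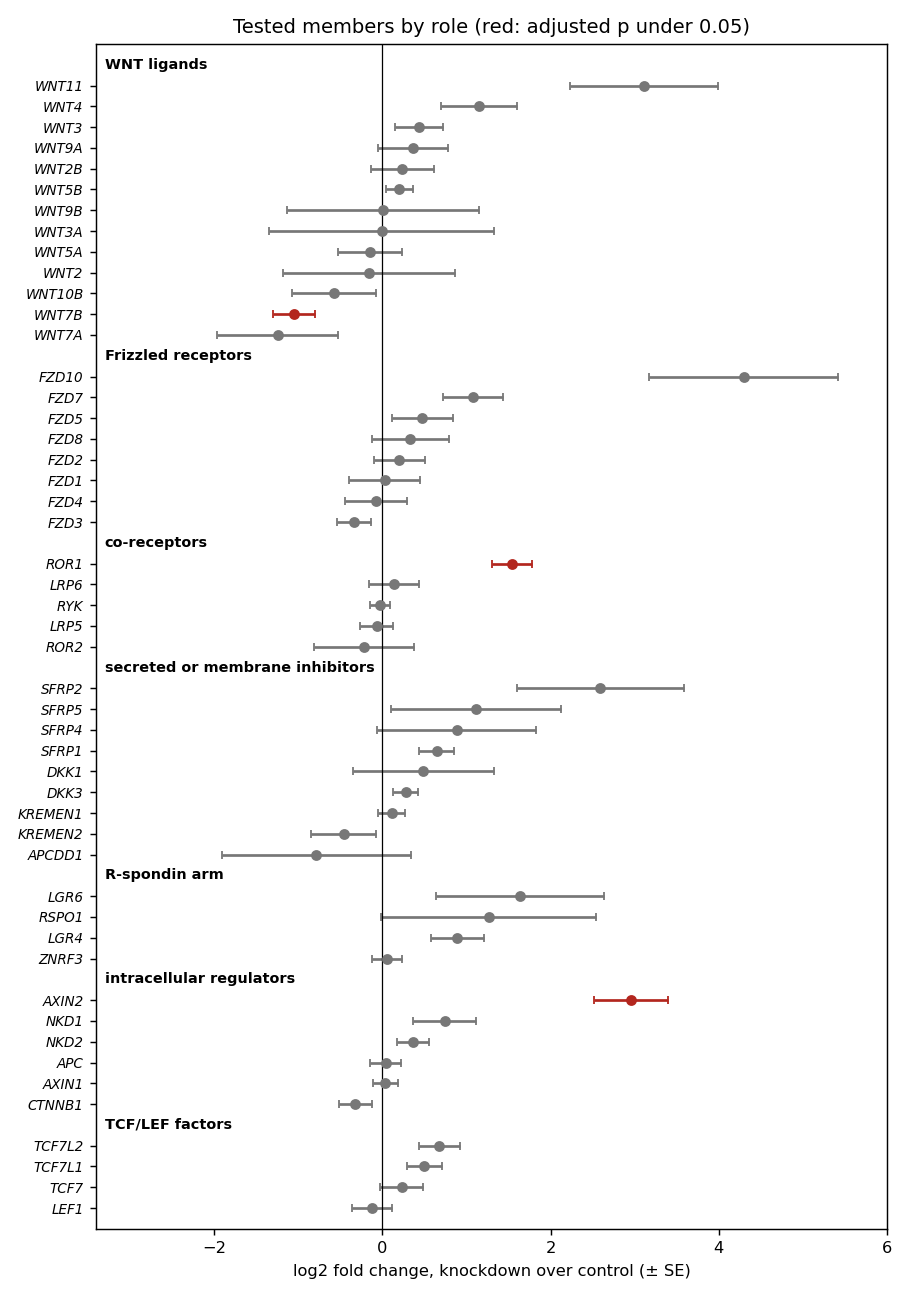
Log2 fold change of the 49 tested members, knockdown over control, with its standard error, grouped by role; the horizontal axis is the log2 scale and red points have an edgeR adjusted p under 0.05. AXIN2 (2.96), ROR1 (1.55) and WNT7B (-1.05) are the red points, and WNT11, FZD10 and SFRP2 have large values with wide errors.

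Levels of different genes can be compared only per length, on the TPM scale. CTNNB1, the beta-catenin gene, had the highest mean level of the members. It averaged 107.5 ± 10.1 TPM in the knockdown and 109.6 ± 61.3 TPM in the control (SD, n = 3 each). By mean, LRP5, WNT5B, RYK and DKK3 followed in the same order in both groups. In control library 2, however, LRP5 (97.8 TPM) exceeded CTNNB1 (77.6 TPM). Mean levels reached at least 1 TPM for 36 of the 52 members in the knockdown and for 32 in the control. AXIN2 was the 7th most abundant member in the knockdown and the 21st in the control, ROR1 the 14th and the 22nd, and WNT7B the 20th and the 13th. Of 51 neighbours in the order, 10 pairs in the knockdown and 1 pair in the control had values that did not overlap, so most single ranks do not separate genes, least of all among the control libraries. In the knockdown AXIN2 and its neighbour above, TCF7L1, overlapped, while AXIN2 and TCF7L2 below it did not.

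**Figure D2:**
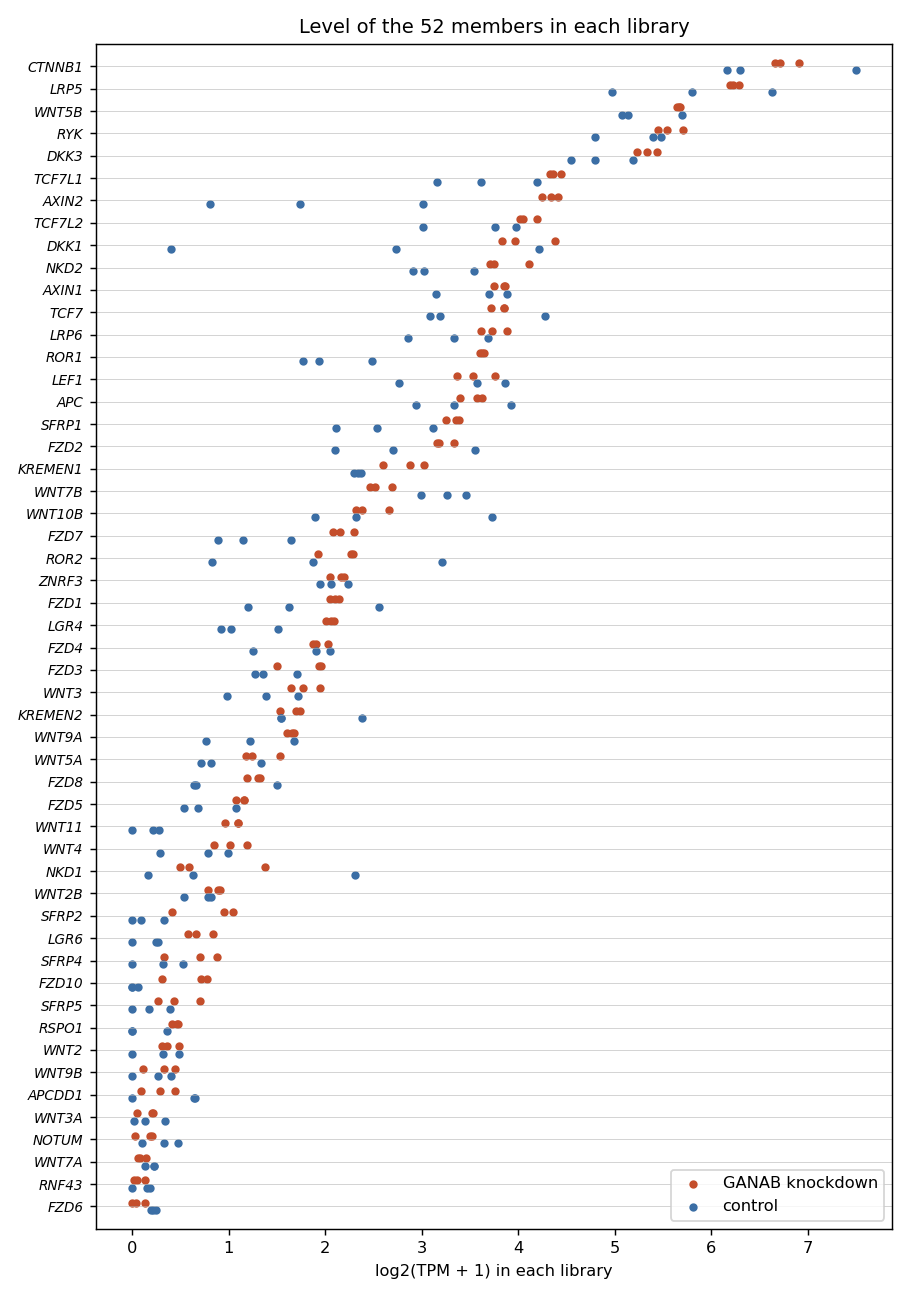
Level of the 52 members as log2(TPM + 1) in each of 3 knockdown libraries (orange) and 3 control libraries (blue), ordered by the knockdown mean. CTNNB1 has the highest mean in both groups, though LRP5 exceeds it in control library 2. AXIN2, ROR1, FZD7 and LGR4 are among the genes whose orange points all lie to the right of the blue ones, while those of WNT7B lie to the left.

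Among the ligands WNT7B, which can act through the beta-catenin arm, fell. WNT7B stood at 16.1, 12.9 and 14.0 CPM in knockdown libraries 1, 2 and 3, against 39.1, 20.7 and 29.2 CPM in control libraries 1, 2 and 3. Every knockdown library lay below every control library, and control library 2 was the lowest control. The log2 fold change was -1.05 (SE 0.249, edgeR adjusted p = 0.0448). The call was lost in 9 of 16 alternative fits, among them those without control library 1 or 3 and those without any 1 knockdown library (edgeR adjusted p = 0.0646 to 0.206 in these 5), and with the replicate number as a block (adjusted p = 0.0680), while the direction was the same in all 16. WNT7B lies on chromosome 22 at 45920362 to 45977129 (GRCh38, minus strand) and overlaps no other annotated gene.

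WNT5B, a ligand of the beta-catenin-independent arm, made up most of the ligand RNA. WNT5B had 68.5, 69.4 and 72.4 CPM in the knockdown libraries against 71.4, 49.2 and 62.2 CPM in the control libraries, overlapping ranges with a log2 fold change of 0.20 (SE 0.162, edgeR adjusted p = 0.487). Of the summed TPM of the 13 ligands, which came to 68.2 to 69.9 TPM in knockdown and 50.6 to 71.2 TPM in control libraries, WNT5B held 71.7% to 73.0% in the knockdown and 56.0% to 71.3% in the control. WNT7B held 6.62% to 7.79% of that sum in the knockdown and 11.9% to 16.99% in the control. Within a library, the TPM ratio of WNT7B to WNT5B was 0.0907 to 0.109 in the knockdown and 0.196 to 0.251 in the control. Both ligand measures separated the groups without overlap, but both contain the same WNT7B values and are not separate evidence for its call.

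WNT11, another ligand of the beta-catenin-independent arm, had few counts in the controls. WNT11 had 62, 59 and 55 counts in knockdown libraries, or 1.54, 1.503 and 1.30 CPM, against 9, 2 and 0 counts in control libraries, or 0.331, 0.105 and 0 CPM. The groups did not overlap, but at these counts the difference did not pass (log2 fold change 3.11, SE 0.878, edgeR adjusted p = 0.0710). WNT4, a ligand with roles in kidney and urogenital development, had 1.89, 1.94 and 2.10 CPM in the knockdown against 1.18, 0.789 and 0.658 CPM in the control, without overlap (edgeR adjusted p = 0.158). WNT7A, the close relative of WNT7B, had 0.174, 0.127 and 0.306 CPM in the knockdown against 0.441, 0.526 and 0.494 CPM in the control (log2 fold change -1.24, edgeR adjusted p = 0.327). For WNT7A and WNT4 the groups did not overlap on CPM but did on TPM, and every library had at most 13 counts of WNT7A.

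WNT10B, a ligand of the beta-catenin arm, was uneven among controls. WNT10B had 6.82, 6.32 and 8.22 CPM in the knockdown against 6.25, 20.1 and 5.35 CPM in the control, where library 2 alone was high (log2 fold change -0.57, edgeR adjusted p = 0.528). The other 7 ligands, WNT2, WNT2B, WNT3, WNT3A, WNT5A, WNT9A and WNT9B, had mean levels of 0.251 to 6.33 CPM in the knockdown and 0.274 to 4.92 CPM in the control. None of these 7 passed, and their log2 fold changes ran over -0.16 to 0.44.

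No Frizzled receptor gene passed the test. FZD2, the most abundant of them per length, had 22.3, 24.9 and 22.8 CPM in the knockdown against 14.3, 31.0 and 15.5 CPM in the control, where library 2 exceeded the knockdown values and libraries 1 and 3 lay below them. FZD7, a receptor linked to stem cell programmes in several epithelia, had 9.90, 11.0 and 9.35 CPM in the knockdown against 5.41, 6.31 and 2.47 CPM in the control. The FZD7 groups did not overlap, with a log2 fold change of 1.08 (SE 0.354, edgeR adjusted p = 0.103). Its share of the summed Frizzled TPM was 13.7% to 16.6% in the knockdown and 7.29% to 9.41% in the control.

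FZD10 had the largest fitted change of the tested receptor genes, on few counts. FZD10 had 62, 22 and 74 counts in the knockdown, or 1.54, 0.560 and 1.74 CPM, against 4, 0 and 0 counts in the control, or 0.147, 0 and 0 CPM (edgeR adjusted p = 0.0577). Its fitted log2 fold change of 4.29 (SE 1.12) rests on 4 control counts, all in library 1. Over the 13 alternatives that held FZD10, it was 3.73 to 8.29 on counts and 0.58 on log2(TPM + 1) with no filter. The latter adds 1 to levels of at most 0.71 TPM, so its value is not on the scale of the others. FZD6, which also has roles in cell polarity, had 2, 0 and 5 counts in the knockdown against 12, 7 and 2 in the control and was not tested.

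The 3 other Frizzled genes above 10 CPM showed overlapping groups. FZD1 had 16.4, 16.7 and 18.0 CPM in the knockdown against 16.9, 26.3 and 6.75 CPM in the control. FZD4, the receptor of Norrin in blood vessels as well as of WNT proteins, had 17.3, 14.5 and 15.4 CPM in the knockdown against 23.7, 18.1 and 7.74 CPM in the control. FZD3, a polarity receptor of axons, had 13.1, 9.98 and 10.5 CPM in the knockdown against 15.3, 12.2 and 14.9 CPM in the control. For each of these the control libraries spanned more than the difference of the means, and edgeR adjusted p was 0.350 to 0.977. FZD5 and FZD8 averaged 6.30 and 4.21 CPM in the knockdown and 4.50 and 3.32 CPM in the control, also with overlap.

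ROR1, a receptor tyrosine kinase-like receptor for WNT5A and related ligands that is common in embryonic tissue and in many tumours, rose. ROR1 stood at 42.7, 44.6 and 46.9 CPM in knockdown libraries 1, 2 and 3, against 15.9, 10.4 and 19.8 CPM in control libraries 1, 2 and 3. All knockdown values lay above all control values, and control library 2 was the lowest. The log2 fold change was 1.55 (SE 0.237, edgeR adjusted p = 0.0137), and it was 1.34 to 1.81 over the 16 alternatives. ROR1 passed in 12 of them; it did not pass without knockdown library 1, 2 or 3 (edgeR adjusted p = 0.0869 to 0.0983) or on log2(TPM + 1) with no filter. On the deposited TPM scale ROR1 averaged 11.3 ± 0.178 TPM in the knockdown and 3.27 ± 1.15 TPM in the control (SD, n = 3 each). ROR1 spans chromosome 1 from 63774022 to 64181498 (GRCh38, plus strand) and overlaps 5 annotated genes of the opposite strand, among them ROR1-AS1; the labels do not say whether counting used strand, so their reads cannot be told apart from its own.

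The promoter of ROR1 is shown because ROR1 is the called member whose promoter RefSeq's table holds (GRCh38.p14, chr1:63773767-63774066, plus strand, 250 bases before the start to 50 after it). It was searched on both strands for CTTTGA, a core of the sequence that TCF/LEF factors bind, and holds no match, so it has no capitals.
ROR1: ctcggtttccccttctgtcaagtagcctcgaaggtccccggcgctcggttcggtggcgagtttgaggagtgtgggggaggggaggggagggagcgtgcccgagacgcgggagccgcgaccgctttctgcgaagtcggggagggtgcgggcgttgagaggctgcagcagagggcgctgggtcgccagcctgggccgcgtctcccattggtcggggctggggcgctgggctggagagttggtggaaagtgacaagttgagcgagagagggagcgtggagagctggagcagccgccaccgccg

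ROR2, the paralog of ROR1, did not separate the groups. ROR2 had 8.44, 9.17 and 8.60 CPM in the knockdown against 9.27, 18.6 and 2.39 CPM in the control, and its log2 fold change was -0.21 (SE 0.593, edgeR adjusted p = 0.865). The ratio of ROR1 to ROR2 in TPM was 2.92 to 4.09 in the knockdown and 0.292 to 5.94 in the control, so the ratio overlapped although ROR1 alone did not. RYK, a receptor with an inactive kinase domain, had 73.9, 77.8 and 80.3 CPM in the knockdown against 83.7, 79.3 and 73.1 CPM in the control.

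The LRP co-receptors of the beta-catenin arm were abundant and overlapped between groups. LRP5 had 167.9, 169.0 and 175.2 CPM in the knockdown against 166.9, 231.5 and 138.0 CPM in the control. LRP6 had 66.8, 72.9 and 67.3 CPM in the knockdown against 84.6, 35.0 and 68.2 CPM in the control. Log2 fold changes of RYK, LRP5 and LRP6 were -0.03, -0.07 and 0.14, with standard errors of 0.123, 0.197 and 0.293. ROR1 made up 7.51% to 7.75% of the summed TPM of the 5 co-receptor genes in the knockdown and 1.52% to 4.06% in the control.

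Of the inhibitors none passed. SFRP1, a secreted Frizzled-like protein that binds WNT ligands, had 30.4, 27.3 and 31.7 CPM in the knockdown against 16.8, 24.8 and 15.5 CPM in the control, without overlap (log2 fold change 0.65, SE 0.211, edgeR adjusted p = 0.102). SFRP2, a related protein typical of fibroblasts, had 54, 18 and 65 counts in the knockdown, or 1.34, 0.458 and 1.53 CPM, against 4, 7 and 0 counts in the control, or 0.147, 0.368 and 0 CPM (log2 fold change 2.59, SE 0.992, edgeR adjusted p = 0.150). Both lay higher in every knockdown library, but SFRP2 rests on few counts. Knockdown library 2 was the lowest of its group for SFRP2 and FZD10, but the highest for SFRP5, APCDD1, RSPO1 and RNF43. SFRP4 and SFRP5 averaged 0.629 and 0.520 CPM in the knockdown and 0.322 and 0.226 CPM in the control.

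The Dickkopf family was led by DKK3, a divergent member whose link to WNT signalling is debated. DKK3 had 62.3, 66.1 and 70.5 CPM in the knockdown against 49.2, 50.6 and 64.3 CPM in the control, with overlap through control library 3. On TPM every knockdown library of DKK3 lay above every control library. The median log2 fold change of all genes was also higher there, 0.23 on log2(TPM + 1) against 0.03 on counts. How many of all genes were apart on TPM was not counted. DKK1, which blocks LRP5 and LRP6 and is a target of beta-catenin, had 11.3, 9.24 and 8.08 CPM in the knockdown against 6.07, 13.7 and 0.412 CPM in the control (log2 fold change 0.49, SE 0.839, edgeR adjusted p = 0.770). The control libraries thus covered the whole knockdown range. Of 35 members found by symbol in RefSeq's promoter table, DKK1 was the 1 whose promoter held CTTTGA on either strand, 2.86% of them, against 12.9% of all 35116 promoters of that length; members' promoters had a median GC content of 72.0% and all promoters 58.7%. The DKK1 promoter (GRCh38.p14, chr10:52314031-52314330, plus strand) is shown for its 2 matches, 1 on each strand, which stand in capitals.
DKK1: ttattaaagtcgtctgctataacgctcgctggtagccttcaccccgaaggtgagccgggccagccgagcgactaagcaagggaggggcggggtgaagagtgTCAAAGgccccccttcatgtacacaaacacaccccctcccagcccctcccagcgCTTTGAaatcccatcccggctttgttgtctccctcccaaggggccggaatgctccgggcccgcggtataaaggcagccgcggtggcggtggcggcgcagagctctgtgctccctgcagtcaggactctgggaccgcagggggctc

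KREMEN1, a receptor for Dickkopf proteins, had 24.1, 21.7 and 20.5 CPM in the knockdown against 22.5, 19.4 and 19.3 CPM in the control. KREMEN2 averaged 3.404 ± 0.431 CPM in the knockdown and 4.66 ± 2.04 CPM in the control (SD, n = 3 each). APCDD1, a membrane inhibitor and target of the pathway, averaged 0.399 CPM in the knockdown and 0.664 CPM in the control. NOTUM, the enzyme that removes the lipid of WNT proteins, had 10, 1 and 9 counts in the knockdown against 5, 12 and 5 in the control and was not tested. The CPM of these 4 genes overlapped between groups.

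In the R-spondin arm, LGR4, a receptor of R-spondins, lay higher in each knockdown library without passing. LGR4 had 8.81, 12.2 and 11.0 CPM in the knockdown against 6.25, 7.41 and 3.46 CPM in the control (log2 fold change 0.89, SE 0.321, edgeR adjusted p = 0.129). Its relative LGR6 had 1.19, 1.20 and 1.63 CPM in the knockdown against 0.773, 0 and 0.494 CPM in the control (edgeR adjusted p = 0.355). ZNRF3, a ubiquitin ligase that removes Frizzled receptors and is a feedback gene of the pathway, had 16.4, 15.6 and 14.6 CPM in the knockdown against 15.5, 12.98 and 16.5 CPM in the control, a log2 fold change of 0.06 (SE 0.176). LGR4 thus held 41.0% to 42.7% of the summed TPM of this arm in the knockdown and 21.0% to 32.4% in the control, and ZNRF3 43.9% to 46.2% in the knockdown and 64.0% to 74.4% in the control.

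RNF43, the ligase paralog of ZNRF3, had 1, 7 and 3 counts in the knockdown against 9, 5 and 0 in the control. RSPO1, a secreted R-spondin made mostly by stromal cells, had 24, 31 and 29 counts in the knockdown against 21, 0 and 0 in the control. For RSPO1 the control count came from library 1 alone, so its log2 fold change of 1.26 (SE 1.28) was 7.40 without that library.

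AXIN2, a scaffold of the beta-catenin destruction complex that beta-catenin induces as negative feedback, rose more than any other member that passed. AXIN2 stood at 49.5, 50.9 and 47.3 CPM in knockdown libraries 1, 2 and 3, against 7.98, 2.31 and 8.81 CPM in control libraries 1, 2 and 3. All knockdown values lay far above all control values, and control library 2 was the lowest. In counts these were 1996, 2000 and 2009 in the knockdown against 217, 44 and 107 in the control. AXIN2 averaged 49.3 ± 1.82 CPM in the knockdown and 6.37 ± 3.54 CPM in the control (SD, n = 3 each), a log2 fold change of 2.96 (SE 0.441, edgeR adjusted p = 0.0128). The fold change was 2.48 to 3.19 on the log2 scale over the 16 alternatives, and AXIN2 passed in 12 of them. It did not pass without knockdown library 1, 2 or 3 (edgeR adjusted p = 0.0758 to 0.0816) or on log2(TPM + 1) with no filter. AXIN2 lies on chromosome 17 at 65528563 to 65561647 (GRCh38, minus strand) and overlaps 1 other annotated gene, AC004805.1, of the same strand, with which it may share reads.

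**Figure D3:**
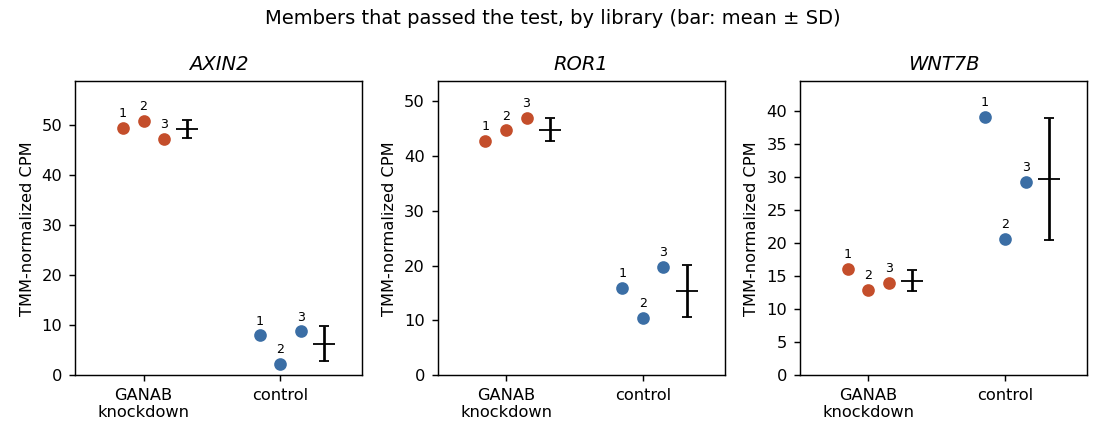
TMM-normalized CPM of AXIN2, ROR1 and WNT7B in each knockdown library (orange) and each control library (blue), with library numbers and the mean ± SD of 3 libraries; vertical axes start at 0. The knockdown points of AXIN2 lie between 47.3 and 50.9 CPM and the control points between 2.31 and 8.81 CPM.

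AXIN1, the paralog of AXIN2 that is not induced by the pathway, differed little. AXIN1 had 35.5, 31.3 and 35.2 CPM in the knockdown against 30.3, 32.1 and 37.2 CPM in the control, with a log2 fold change of 0.04 (SE 0.146, edgeR adjusted p = 0.912). The ratio of AXIN2 to AXIN1 in TPM was 1.49, 1.55 and 1.34 in knockdown libraries 1, 2 and 3, against 0.297, 0.0620 and 0.514 in control libraries 1, 2 and 3. AXIN2 was thus the more abundant AXIN gene in every knockdown library and the less abundant one in every control library.

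CTNNB1 had 182.5, 191.5 and 184.2 CPM in the knockdown against 214.8, 181.7 and 300.3 CPM in the control (log2 fold change -0.32, SE 0.195, edgeR adjusted p = 0.355). On log2(TPM + 1) its log2 fold change was 0.10, so no direction can be given. APC, the tumour suppressor scaffold of the destruction complex, had 69.0, 66.8 and 67.7 CPM in the knockdown against 74.8, 49.3 and 74.1 CPM in the control. Both genes overlapped between groups.

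NKD1 and NKD2 bind dishevelled and damp WNT signals, and NKD1 is a feedback gene like AXIN2. NKD2 had 15.1, 12.9 and 13.6 CPM in the knockdown against 11.4, 11.5 and 9.38 CPM in the control, without overlap (log2 fold change 0.36, SE 0.189, edgeR adjusted p = 0.277). NKD1 averaged 3.48 ± 0.0866 CPM in the knockdown and 2.06 ± 0.732 CPM in the control (SD, n = 3 each; log2 fold change 0.74, SE 0.375, edgeR adjusted p = 0.261). Its TPM gave the other order, 0.835 ± 0.661 in the knockdown and 1.54 ± 2.11 in the control, through control library 3 at 3.97 TPM.

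Of the nuclear TCF/LEF factors none passed. TCF7L2 had 37.5, 35.4 and 29.5 CPM in the knockdown against 28.7, 15.5 and 19.7 CPM in the control, without overlap (log2 fold change 0.68, SE 0.244, edgeR adjusted p = 0.129). TCF7L1, which acts mainly as a repressor, had 42.2, 38.2 and 45.3 CPM in the knockdown against 25.3, 39.1 and 24.6 CPM in the control, with overlap through control library 2. On TPM the groups of TCF7L1 did not overlap, but the median log2 fold change of all genes was also higher there (0.23 on log2(TPM + 1), 0.03 on counts). TCF7 had 25.9, 27.8 and 27.9 CPM in the knockdown against 23.8, 15.03 and 30.9 CPM in the control. LEF1, which is itself a target of beta-catenin, had 14.9, 12.6 and 14.0 CPM in the knockdown against 11.4, 14.2 and 19.7 CPM in the control, a log2 fold change of -0.13 (SE 0.236, edgeR adjusted p = 0.788). AXIN2 passed, whereas the tested feedback or target genes ZNRF3, NKD1, DKK1, APCDD1 and LEF1 did not; the difference between them was not tested.

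How many members passed depended on the libraries in the fit. Without knockdown library 1, 2 or 3 no member passed, and 0.311%, 0.575% and 0.44% of all genes did. In those fits the log2 fold change stayed at 2.94 to 2.99 for AXIN2 and 1.51 to 1.58 for ROR1. Their standard errors were 0.513 to 0.515 and 0.289 to 0.291, against 0.441 and 0.237 in the main fit. Without control library 2, the library farthest from the other controls for 47.6% of all genes and 44.9% of members, 11 members passed, 9 higher and 2 lower, beside 27.7% of all genes. These 11 were AXIN2, ROR1, WNT7B, FZD2, FZD7, FZD10, SFRP1, SFRP2, LGR4, TCF7L1 and CTNNB1, of which WNT7B and CTNNB1 were lower in the knockdown. Control library 2 was not low throughout: it was the lowest control for 34.7% of tested members and the highest for 40.8%. Over all genes these shares were 40.6% and 37.8%. Control library 3, which had the fewest counts, was the lowest for 51.0% of tested members and 35.6% of all genes. Without control library 1, AXIN2, ROR1, WNT11, RSPO1 and TCF7L2 passed, 5 members beside 7.89% of all genes, and without control library 3, AXIN2 and ROR1 passed beside 8.66%.

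Other tools and scalings gave counts that moved with the background. DESeq2's Wald test called FZD7, FZD10 and WNT11 besides AXIN2, ROR1 and WNT7B, with 17.5% of all genes called, and limma-voom with sample quality weights called FZD7, SFRP1 and TCF7L1 besides these 3, with 19.1% called. The 3 genes of the main test were also the ones called with DESeq2 size factors (8.31% of all genes), with upper-quartile scaling (8.19%), with no filter on low counts (6.98%) and with at least 5 CPM in 3 libraries (15.3%). AXIN2 and ROR1 alone were called on log2(TPM + 1) (5.31%), on log2(TPM + 0.1) (3.38%) and with a replicate block (2.91%). No member was called on log2(TPM + 1) with no filter (0.138%).

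**Figure D4:**
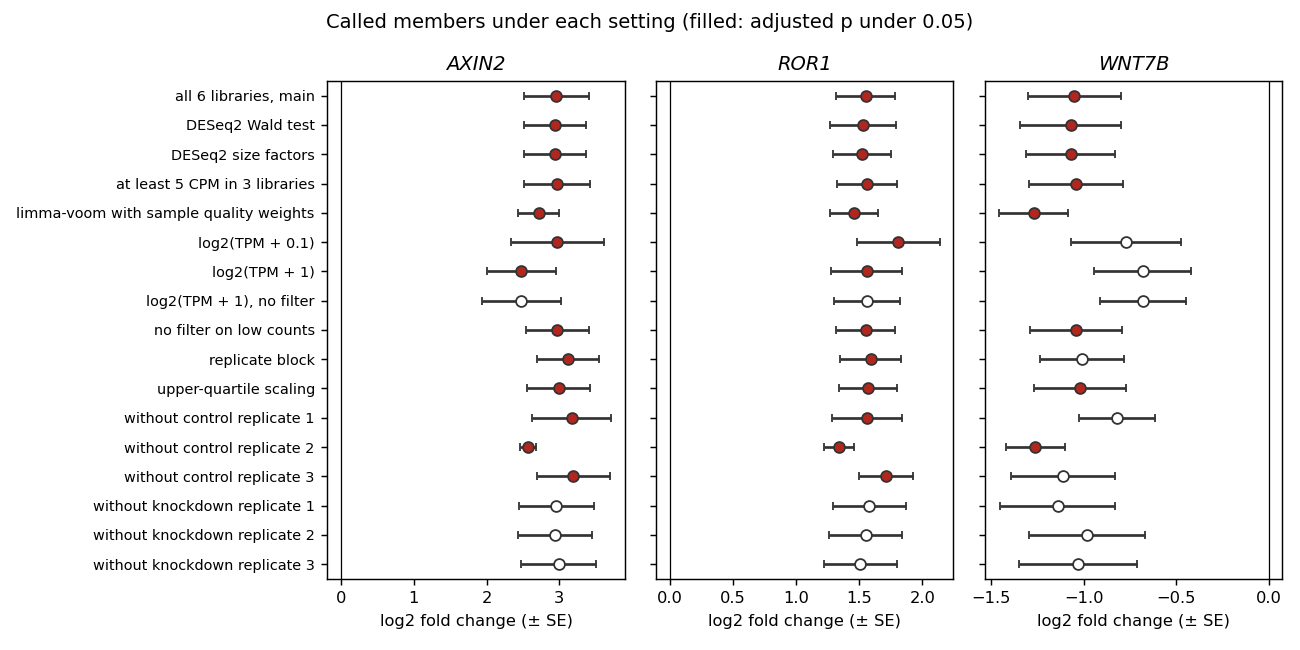
Log2 fold change, knockdown over control, with its standard error for AXIN2, ROR1 and WNT7B in the main fit and 16 alternative settings (rows); filled points have an adjusted p under 0.05. All values of AXIN2 and ROR1 lie above 0 and all of WNT7B below 0, while the points are open in each fit that leaves out a knockdown library.

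Human genes used as markers of cell types moved with the groups in part. Whether their reads came from host cells or from the UMUC3 cells was not tested. Over all genes tested 4.59% passed higher and 3.72% lower in the knockdown. Of 6 tested smooth muscle genes 4 rose (MYH11, ACTA2, CNN1 and TAGLN), and the list summed to 419 to 448 CPM in knockdown and 82.0 to 196 CPM in control libraries. Of 8 fibroblast and matrix genes PDGFRB rose and COL6A3 fell, with sums of 276 to 281 CPM in the knockdown and 149.6 to 307 CPM in the control; LUM was listed at 0 in every library. None of 7 endothelial or 6 leukocyte genes passed, with sums of 109 to 111 and 76.4 to 77.7 CPM in the knockdown and 72.4 to 295 and 89.0 to 295 CPM in the control. The endothelial sum joins genes that went both ways. CDH5 stood at a log2 fold change of 4.1 (SE 1.06, edgeR adjusted p = 0.0566) on few control counts, and TIE1 at -1.38 (SE 0.553, edgeR adjusted p = 0.166). MYOCD, CLDN5, CD14, CD3E, MS4A1 and NCR1, which help define these types, were outside the count table and at most 0.647 TPM in any library. Of 3 nerve genes TUBB3 fell, and of 13 urothelial genes UPK1A and FOXA1 rose; these lists summed to 202.5 to 206.5 and 368 to 394 CPM in the knockdown and 190.7 to 321.6 and 243 to 453 CPM in the control. The part of host cells in the values of AXIN2, ROR1, WNT11, SFRP2, FZD10 and RSPO1 was not tested either.

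Of 113 other genes of the pathway, in 7 lists, 93 were tested and 1 passed, NFATC2, which rose. That is 1.08% against 8.31% of all genes, and the median log2 fold change was 0.01 over these genes and 0.03 over all genes. The low share depended on the fit: 17 passed with DESeq2's Wald test (17.5% of all genes), 23 with limma-voom with sample quality weights (19.1%) and 32 without control library 2 (27.7%). NFATC2, a calcium-responsive transcription factor listed with the beta-catenin-independent arm, had 205.4, 205.1 and 211.7 CPM in the knockdown against 30.9, 9.78 and 56.6 CPM in the control (log2 fold change 2.68, SE 0.543, edgeR adjusted p = 0.0281). The groups were far apart, with control library 2 lowest, but NFATC2 lost its call when control library 1 or any 1 knockdown library was left out (edgeR adjusted p = 0.0728 to 0.125).

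Among 9 genes of WNT secretion the smallest p belonged to WLS, the carrier that brings WNT ligands to the cell surface, with 142.5, 155.3 and 151.5 CPM in the knockdown against 108.3, 113.7 and 90.7 CPM in the control (log2 fold change 0.52, SE 0.137, edgeR adjusted p = 0.0583). TRABD2B, a protease that cleaves WNT proteins, had a log2 fold change of 1.91 (SE 0.545). Of 7 other extracellular modulators, SERPINF1, a secreted serpin, stood at 2.21 and IGFBP4, a growth factor binding protein that can also bind LRP6, at -2.22, where control library 2 held 1740 CPM against 506.7 and 274.7 CPM in the other controls. Neither list had a member that passed, and their medians were -0.33 and -0.09.

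Dishevelled-binding DACT1 and DACT3 had log2 fold changes of 2.09 and 1.04 at low levels, and the 8 tested genes of that list had a median of 0.24. Among 16 partners of the destruction complex the median was 0.06; APC2, a paralog of APC, stood at 1.00 (SE 0.338) and the kinase gene CSNK1A1 at 0.21 (SE 0.125). Among 17 nuclear partners the corepressor genes TLE3 and TLE4 stood at 0.63 (SE 0.180) and -0.83 (SE 0.245), with a list median of -0.08. None of these genes passed (edgeR adjusted p = 0.0546 to 0.350 for those named).

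The 12 tested targets of beta-catenin outside the members had a median of 0.21 and none passed. CCN5, a matricellular protein gene, had a log2 fold change of -1.70 (SE 0.495, edgeR adjusted p = 0.0766) and JUN, an AP-1 subunit gene, 1.40 (SE 0.449, edgeR adjusted p = 0.0977). MYC and CCND1, named after their values were seen because they are the best known targets, had log2 fold changes of 0.86 (SE 0.332, edgeR adjusted p = 0.153) and 0.01 (SE 0.273). MYC had 809.8, 767.2 and 808.5 CPM in the knockdown against 453.8, 226.9 and 635.6 CPM in the control, without overlap. Another 11 genes of the list, among them SP5, TNFRSF19 and ASCL2, were outside the count table and reached at most 0.271 TPM in any library.

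**Figure D5:**
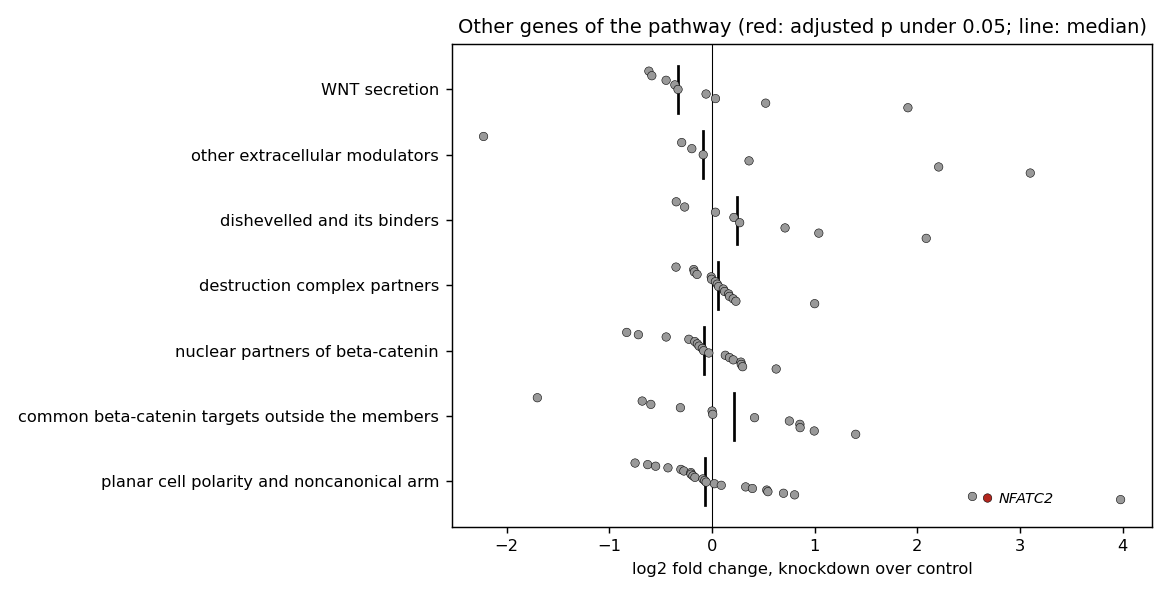
Log2 fold change, knockdown over control, of 93 tested pathway genes outside the members, by list; each point is a gene, the black line is the list's median and the red point has an edgeR adjusted p under 0.05. NFATC2 (2.68) is the red point, and the 7 medians lie between -0.33 and 0.24.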

How the data were processed

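Bulk RNA-seq was done on 3 knockdown and 3 control libraries, each from 200 ng of TRIzol-extracted total RNA per the labels' protocols. The submitters' processing notes name Salmon, fastp, DESeq2 and the build GRCh38, without versions or roles. Whether mouse reads were removed is not recorded there, and host reads alike enough to human transcripts may be in the values. The authors deposited estimated counts for 21503 genes, whole as written, with a total of 15 or more per gene and at least 3 libraries above 0. They also deposited TPM for 60233 genes. Knockdown columns are headed with an abbreviation of knockout in both files and were matched to libraries by group and number.

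The test was edgeR 4.0.16 (quasi-likelihood, R 4.3.3) on estimated counts of all 6 libraries, 2-sided, with filterByExpr (2073 genes removed), TMM and Benjamini-Hochberg adjustment over 19430 genes at 0.05. Standard errors came from the log2 fold change and F statistic. Alternatives used DESeq2 1.42.0, limma 3.58.1 on counts and on log2 TPM, other scalings and filters, a replicate block and each library left out. For each gene the main test takes the same spread in both groups, and so did the simulated data it was run on. The common spread between libraries beyond counting noise was 10.7% in the knockdown and 52.3% in the control. That simulation therefore cannot show whether the p-values hold at such unequal spread. Positions and overlaps came from GENCODE 29 (GRCh38): 31 of 52 members overlap another gene, 28 a gene of the opposite strand. Blank symbols were filled from a table of Ensembl identifiers for the lists. Values in every library are given for members that passed, that averaged at least 10 CPM in the higher group, or that had a log2 fold change of at least 1 in size with groups apart; of other genes, those that passed or the 2 of smallest p in a list are named. Members and lists were chosen with earlier results of these data known. Pairs of libraries within a group differed beyond sampling noise (chi-square per degree of freedom 119 to 484 in control and 6.07 to 7.78 in knockdown).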

Additional observations from a re-analysis of the deposited data

How the results depend on the processing

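AXIN2 and ROR1 were higher and WNT7B lower in the knockdown under all 16 alternatives, but none of the 3 passed on log2(TPM + 1) with no filter (log2 fold changes 2.48, 1.56 and -0.68; 0 members, 0 other pathway genes and 46 of all genes called). WNT7B was also lost on log2(TPM + 1) (-0.68), on log2(TPM + 0.1) (-0.77) and with the replicate block (-1.01). Leaving out 1 library gave 2.57 to 3.19 for AXIN2, 1.34 to 1.71 for ROR1 and -1.26 to -0.82 for WNT7B, with 0 to 11 members, 0 to 32 other pathway genes and 62 to 5604 of all genes called. DESeq2 called 6 members, 17 other pathway genes and 3676 genes; limma-voom with quality weights called 6, 23 and 3716. Other pathway genes called were 2 with DESeq2 size factors, 3 with at least 5 CPM, 4 on log2(TPM + 1) and 2 on log2(TPM + 0.1), where 828 and 526 of all genes were called. CTNNB1 changed sign on the TPM scale (0.10 on log2(TPM + 1), with or without a filter, and on log2(TPM + 0.1), against -0.32) while the median of all genes was 0.23, 0.09 without the filter and 0.28 on log2(TPM + 0.1). The cause of these shifts was not tested.

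Replicate numbers are shared between groups. Deviations from the group means of same-numbered libraries correlated at 0, 0.02 and 0.02. The knockdown libraries differed little among themselves, so these correlations cannot show whether libraries were handled in pairs. With the replicate block 566 genes and 2 members, AXIN2 and ROR1, were called. A single count was worth up to 0.0823 CPM in control library 3, so members under about 1 CPM rest on few counts.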

Other observations

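The 13 members listed only in the TPM table were at the lower edge of detection. LGR5, a stem cell receptor and classical target of beta-catenin, was listed at 0 TPM in all 6 libraries, as were WNT1 and DKK4. DKK2, a secreted Dickkopf protein, was listed at 0.348, 0.0438 and 0.389 TPM in knockdown libraries 1, 2 and 3, against 0, 0.0504 and 0 TPM in control libraries 1, 2 and 3. RSPO3, an R-spondin, was listed at 0.335, 0.0297 and 0.0259 TPM in the knockdown and at 0 in each control library. The remaining 8 (FZD9, RSPO2, RSPO4, WNT6, WNT8A, WNT8B, WNT10A and WNT16) reached at most 0.210 TPM in any library. None of these genes was tested on counts.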
